A study of Mus musculus with 6 samples.

Results

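The baseline dependence of hippocampal microglia on TREM2, in mice labelled E4 and carrying no tau transgene label, was described from 2 single-nucleus RNA libraries: E4/TREM2-, in which Trem2 is labelled as deleted, and E4/TREM2+. Members were the nuclei of these libraries with at least 200 detected genes, at most 5% of unique molecular identifiers (UMIs, 1 per captured RNA molecule) from mt- genes and under 3 UMIs summed over F13a1, Mrc1, Cd163, Cd209f and Cbr2, genes of border-associated macrophages. This kept 4627 nuclei of E4/TREM2- and 4935 of E4/TREM2+, 9562 of the 10481 deposited for the pair and of the 30879 that pass the same rule in all 6 libraries of the series. Each library pooled the hippocampi of 3 mice aged 9.5 months, sorted as PU.1-positive nuclei and read with the 10x v3.1 kit, which tags RNA near its 3′ end. Both groups carry the E4 label, which the series title ties to ApoE4, so that the labels of the pair differ in TREM2. How the E4 allele was made and where the Trem2 deletion lies is not given in the sources used here. The other libraries used for comparison were the P301S/E4 and P301S/EKO pairs, each with a TREM2- and a TREM2+ member, in which P301S is a mutation of tau and EKO an Apoe label that stands where the others have E4. The promoter that drives tau is not given in the sources used here.

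TREM2 is a receptor on the surface of microglia that binds lipids, lipoproteins including APOE, and cell debris. It has no signalling tail of its own and works through the adaptor TYROBP (DAP12), whose ITAM motif recruits the kinase SYK. It is best known for the disease-associated (DAM) programme, in which microglia near amyloid or dying cells lose homeostatic genes such as P2ry12 and Tmem119 and gain Apoe, Lpl, Spp1 and Itgax, with the later, stage 2, genes requiring TREM2.

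With 1 library on each side, no difference within the E4 pair has a test. Ratios are therefore given as log2 of the UMI share in E4/TREM2- over that in E4/TREM2+, with an exact 95% interval that covers counting error only and not the spread between mice. To remove the difference in depth (median 707 UMIs and 472 genes per nucleus in E4/TREM2- against 569 and 398 in E4/TREM2+), each nucleus was thinned at random to 400 UMIs. No nucleus of the pair was shallower, and the thinned libraries held 1850800 and 1974000 UMIs. The libraries shared 7 cell barcodes. All 12 microglia markers were measured, and 4396 of 4627 E4/TREM2- nuclei and 4652 of 4935 E4/TREM2+ nuclei held at least 3 of their UMIs. Their mean was 8.03 UMIs per nucleus in E4/TREM2- and 7.10 in E4/TREM2+, a summed log2 ratio of 0.18 (0.16 to 0.20). Of the 12, 10 were above 0, beside 43.4% of all genes with at least 30 UMIs over both libraries. Nuclei with 3 or more unthinned UMIs of neuron markers were few, 93 and 59, and their median depth was 2694 and 2471 UMIs.

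The targeted gene followed the labels but was not absent. Trem2 (chr17:48346401-48354147, mm10) had 670 UMIs in E4/TREM2- and 1928 in E4/TREM2+, a log2 ratio of -1.43 (-1.56 to -1.304). At least 1 Trem2 UMI was found in 13.2% (12.3 to 14.3) of E4/TREM2- nuclei and in 31.4% (30.1 to 32.7) of E4/TREM2+ nuclei. In the neuron-marked nuclei the shares were 2.15% (0.26 to 7.55, 2 of 93) and 11.9% (4.91 to 22.9, 7 of 59). These nuclei are not a clean background, since 21.5% and 30.5% of them held 3 or more UMIs of microglia markers. Both shares over all nuclei were thus above those of neuron-marked nuclei of the same library, so Trem2 transcripts were counted in the library labelled TREM2- too. Whether these 3′ tags lie outside the deleted sequence was not tested. E4/TREM2- had the lowest Trem2 level of the 6 libraries at 362 CPM, UMIs scaled to a library total of 1000000, against 461 and 592 in the other TREM2- libraries and 977 to 1173 in the TREM2+ libraries.

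The partners of TREM2 were level between the libraries. Tyrobp had 865 and 876 UMIs in E4/TREM2- and E4/TREM2+, a log2 ratio of 0.07 (-0.06 to 0.21). Apoe was counted under its mouse gene name, and how reads of the E4 allele were assigned is not given in the sources used here. It had 237 and 242 UMIs, a ratio of 0.06 (-0.20 to 0.33). Both intervals lie well inside 2-fold.

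Across the transcriptome the 2 libraries were close. Of 5919 genes with at least 100 UMIs over both, 90% had log2 ratios between -0.53 and 0.41, around a median of -0.06. There were 10 genes at least 2-fold higher in E4/TREM2- (0.169%) and 14, Trem2 among them, at least 2-fold lower (0.237%), 0.405% together. At 1.5-fold the shares were 1.77% higher and 3.48% lower, 5.25% together, and 41.5% of the genes lay above 0 and 58.5% below. Because a single random thinning adds noise at about 100 UMIs, each of the 23 genes other than Trem2 was also read from the unthinned sums and from the expected value of the thinning, in which every UMI is weighted and none is drawn. By both, 7 of the 13 lower genes (Hbegf, Ccr6, Ccdc80, Slc15a2, Zfyve21, Slfn8 and Gm43154) and 7 of the 10 higher genes (Meg3, Rnf121, Snhg11, Gm26870, Tnrc6c, Mrc2 and H2-Aa) stayed 2-fold apart. The other 9 came under 2-fold in 1 or both readings.

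**Figure D1:**
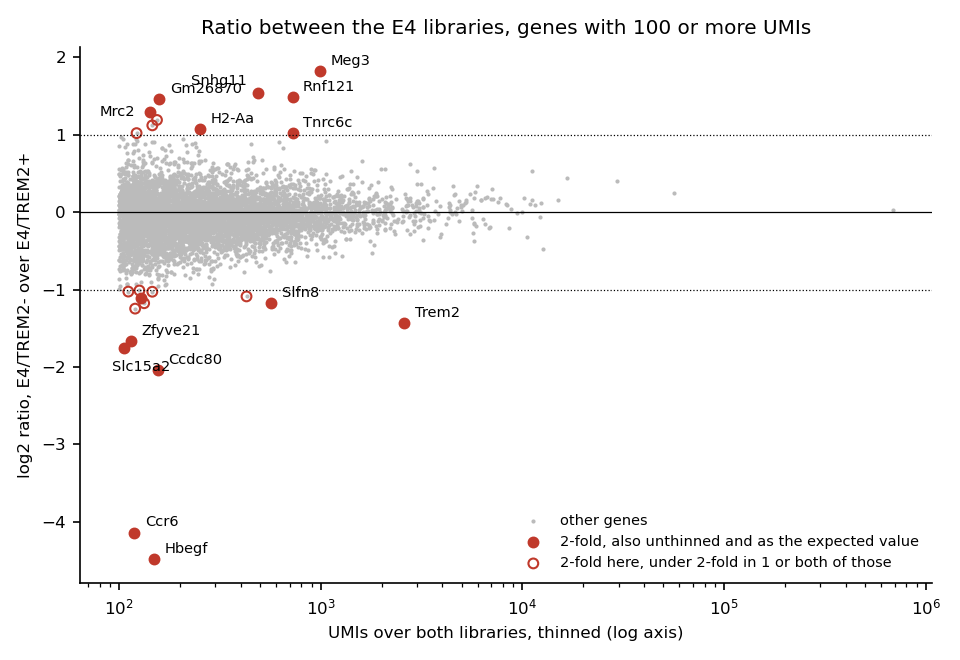
Each point is 1 of 5919 genes, by its UMIs over both thinned E4 libraries (log axis) and its log2 ratio of E4/TREM2- over E4/TREM2+; dotted lines mark 2-fold. Filled red points are the genes that stayed 2-fold apart, and Hbegf and Ccr6 lie far below all others at -4.48 and -4.14.

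Among the lower genes, Hbegf and Ccr6 stood apart. Hbegf, which encodes the heparin-binding EGF-like growth factor, had 6 UMIs in E4/TREM2- and 143 in E4/TREM2+, a log2 ratio of -4.48 (-5.95 to -3.32). It was counted in 0.130% of E4/TREM2- nuclei and in 2.67% of E4/TREM2+ nuclei. Over the alternative readings its ratio ran from -4.48 to -2.91, and unthinned it had 25 and 228 UMIs (-3.35). Over the series, E4/TREM2- was the lowest library for Hbegf with 3.24 CPM and E4/TREM2+ the highest with 72.4, and the P301S libraries filled the range between, at 11.8 and 55.8 in P301S/E4 and 62.8 and 22.7 in P301S/EKO, the TREM2- library first. The direction in P301S/E4 was the same, at -2.24 (-2.84 to -1.67), and in P301S/EKO the opposite, at 1.47 (0.89 to 2.09).

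Ccr6, the receptor of the chemokine CCL20, had 6 and 113 UMIs, a log2 ratio of -4.14 (-5.62 to -2.98). It was counted in 0.130% and 2.25% of nuclei, and alternative readings ranged from -5.04 to -3.30. In CPM it was 3.24 in E4/TREM2- and 57.2 in E4/TREM2+, but 64.8 in P301S/E4/TREM2- and 73.7 in P301S/EKO/TREM2-, against 0.827 and 2.83 in the matching TREM2+ libraries. High and low libraries therefore fell on opposite sides of the TREM2 label without and with P301S.

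Ccdc80, which encodes a secreted matrix-associated protein, was lower on the TREM2- side of every pair. It had 29 UMIs in E4/TREM2- and 127 in E4/TREM2+, a ratio of -2.04 (-2.67 to -1.45), and ratios of -2.46 and -2.44 in P301S/E4 and P301S/EKO. Alternative readings of the E4 pair ran from -2.71 to -1.05. At 15.7 CPM E4/TREM2- lay beside 11.8 and 15.1 in the other TREM2- libraries, below the 64.3 to 82.2 of the TREM2+ libraries.

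Of the remaining lower genes, Slc15a2, the peptide transporter PEPT2, had 23 and 83 UMIs (-1.76, -2.49 to -1.08). Zfyve21, which encodes an endosomal FYVE-domain protein, had 26 and 88 (-1.67, -2.36 to -1.02). For both genes E4/TREM2- was the lowest of the 6 libraries. Slfn8, a schlafen-family gene induced by interferon, had 167 and 401 UMIs (-1.17, -1.44 to -0.91), and the lincRNA Gm43154 had 39 and 90 (-1.11, -1.69 to -0.56). Their alternative readings reached -0.87 and -0.76, and that of Slc15a2 -0.94. For Slfn8, E4/TREM2- stood at 90.2 CPM and the other 5 libraries between 178 and 296, so that E4/TREM2- was the one outside their range. Gm43154 was likewise lowest in E4/TREM2-, and higher on the TREM2- side of P301S/EKO at 1.16 (0.65 to 1.69).

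The 6 lower genes that came under 2-fold were Mlph, which links Rab27a to myosin Va, Tbpl1, Tkt (transketolase, of the pentose phosphate pathway), Gm42031, Renbp and Ankzf1. Their ratios ran from -1.25 to -1.01 as thinned and from -0.83 to -0.50 unthinned.

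Among the higher genes, Meg3 and Snhg11, long non-coding RNAs most abundant in neurons, led. Meg3 had 765 UMIs in E4/TREM2- and 231 in E4/TREM2+ (1.82, 1.61 to 2.04), and Snhg11 had 356 and 131 (1.54, 1.24 to 1.84). They were concentrated in few nuclei: Meg3 was counted in 1.51% of E4/TREM2- nuclei and 0.608% of E4/TREM2+ nuclei, but in 64.5% and 39.0% of the neuron-marked ones, with up to 46 UMIs in a nucleus. Without the nuclei above 2 times their library's median depth, the ratios were 0.46 for Meg3 and 0.40 for Snhg11. Without every nucleus holding a UMI of a neuron, astrocyte, oligodendrocyte or ependymal marker, Snhg11 had 1 and 4 UMIs and Meg3 9 and 5. The 11 measured of 16 neuron markers had a median ratio of 0.36, with 9 above 0, beside 43.4% of all genes with at least 30 UMIs. Their summed level was 393 CPM in E4/TREM2- and 303 in E4/TREM2+, against 123 to 344 in the P301S libraries. Neuron-marked nuclei were 93 of 4627 in E4/TREM2- and 59 of 4935 in E4/TREM2+, and Snhg11 was counted in 53.8% and 37.3% of them. How much of the summed differences came from the number of such nuclei, and how much from these transcripts per nucleus, was not tested.

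Rnf121, which encodes an E3 ubiquitin ligase of the endoplasmic reticulum and Golgi, had 525 and 199 UMIs (1.49, 1.25 to 1.74). It was counted in 9.81% and 3.55% of nuclei. Its level varied widely over the series without following the TREM2 label: 284 and 101 CPM in the E4 pair, 380 and 16.5 in P301S/E4, and 232 and 320 in P301S/EKO, the TREM2- library first.

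Tnrc6c, a GW182 protein of microRNA-mediated silencing, had 477 and 250 UMIs (1.03, 0.80 to 1.25). It was counted in 9.64% and 4.86% of nuclei. E4/TREM2- was the highest library at 258 CPM, above P301S/EKO/TREM2- at 188, while the other 4 lay between 116 and 128. Over 13 alternative readings of the pair the ratio stayed between 0.94 and 1.20.

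Mrc2, the endocytic collagen receptor Endo180, had 99 and 43 UMIs (1.296, 0.77 to 1.85), and was lower on the TREM2- side of both P301S pairs, at -0.54 and -0.72. The lincRNA Gm26870 had 114 and 44 UMIs (1.47, 0.95 to 2.00). It was higher on the TREM2- side in P301S/E4 and P301S/EKO as well, at 1.12 and 0.75. H2-Aa is described with the other MHC class II genes. The 3 higher genes that came under 2-fold in a second reading were Sparcl1, a matricellular gene of astrocytes, the replication gene Gins2 and the peroxiredoxin gene Prdx6, at 1.19, 1.12 and 1.02. For all 3 it was E4/TREM2+ that lay outside the other libraries, as the lowest of the 6.

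**Figure D2:**
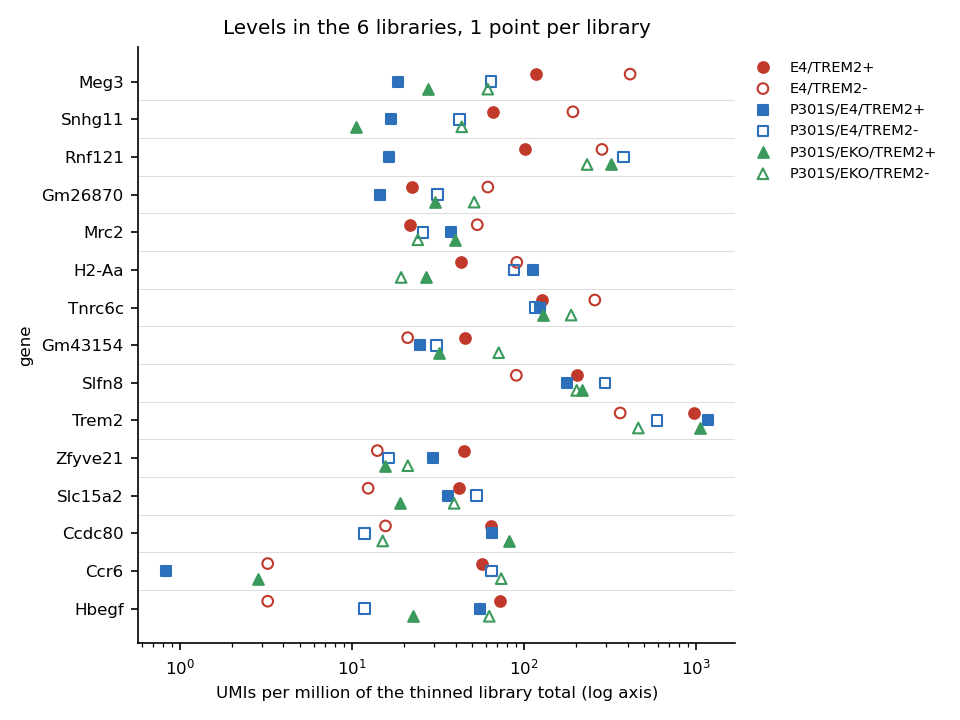
Level of Trem2 and of the 14 genes that stayed 2-fold apart, in CPM of the thinned library total (log axis), with 1 point for each of the 6 libraries; filled symbols are TREM2+ and open symbols TREM2-. Among Trem2 and the 7 lower genes, all 3 open symbols lie left of all 3 filled ones for Trem2 and Ccdc80, and for no other. Among the higher genes, all 3 open symbols lie right of all 3 filled ones for Gm26870 only. Its nearest open and filled symbols are at 31.5 and 30.5 CPM.

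The E4 pair was also set against the spread of the series gene by gene. For 16 of the 23 genes E4/TREM2- lay outside the range of the other 5 libraries, for 9 E4/TREM2+ did, for 6 both did and for 4 neither did. The 23 genes were chosen by the difference between these same E4 libraries, which favours such ranks. The share over all genes was not computed, so these counts are not a test. Of the 13 lower genes, 2 were at least 2-fold lower in P301S/E4 and 1 in P301S/EKO, while 1 and 4 were at least 2-fold higher there. Among the 10 higher genes, 4 were 2-fold higher in P301S/E4 and 3 in P301S/EKO, and none was 2-fold lower. Over all 5919 genes, the shares 2-fold higher and lower were 0.76% and 0.439% in P301S/E4 and 0.473% and 0.287% in P301S/EKO. With the same 3530 nuclei drawn from every library, 0.396% of tested genes were 2-fold apart in the E4 pair, 1.48% in P301S/E4 and 0.810% in P301S/EKO. This count was added after the data were seen, and the difference between the pairs has no test.

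The only replicated comparison sets the 3 TREM2- libraries against the 3 TREM2+ libraries with a term for background, in edgeR's quasi-likelihood test on the unthinned sums. It called 13 of 12403 genes (0.105%) at a Benjamini-Hochberg adjusted p of 0.05, 3 higher and 10 lower, and 744 genes had an unadjusted p under 0.05. Ccdc80, Spp1, Lpl, Itgax, Fgr, Trem2, Mdfi, Olfr111, Guca1b and Lox fell with the deletion (0.0806%), and AI661453, Meg3 and Snhg11 rose (0.0242%). Lox had no UMI in the thinned E4 libraries. All 13 were also called when both E4 libraries were left out, in a fit that called 40 of 12866 genes (0.311%), so that the E4 pair can be read against it as separate mice.

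Read in this way, some genes of the P301S backgrounds had the same direction in the E4 pair. Of the 28 genes that fell in the P301S libraries alone, 12 had at least 30 UMIs in the E4 pair. Of these 12, 10 were lower in E4/TREM2- and 6 were at least 2-fold lower, with a median log2 ratio of -0.73 in the E4 pair against a median of -1.65 over all 12 in the P301S fit. Of the 12 that rose, 11 were measured, 7 were higher in E4/TREM2- and 3 were at least 2-fold higher, with medians of 0.20 and 1.63. Over all 9650 genes with at least 30 UMIs, 56.6% were below 0 and 43.4% above, and 1.23% were 2-fold lower and 1.17% 2-fold higher. The 30 UMIs were summed over both E4 libraries, so a gene could enter mainly through E4/TREM2+. Olfr111 entered in this way, with 1 UMI in E4/TREM2- and 29 in E4/TREM2+. The counts are therefore not a test. The 6 were Trem2 itself, Mdfi, Olfr111, Ccdc80, Lpl and Fgr, and the 3 were AI661453, Meg3 and Snhg11. Mdfi, AI661453 and Treml1 lie within 1 Mb of Trem2, and Olfr111 lies on the same chromosome. Meg3 and Snhg11 were concentrated in few nuclei, largely neuron-marked ones, as described above.

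DAM genes called by both fits were rare in the E4 pair, and Spp1 and Itgax had under 30 UMIs there and are not among the 12. Lpl, lipoprotein lipase, had 9 UMIs in E4/TREM2- and 25 in E4/TREM2+ (-1.38, -2.66 to -0.23; alternatives -2.31 to -0.27), and was counted in 0.195% and 0.426% of nuclei. Over the 3 backgrounds it fell by 1.70 (SE 0.15, edgeR adjusted p 0.00055). Spp1, osteopontin, had 0 and 7 UMIs, at least 2.19-fold lower against a floor of 3 counts in the library, with a counting interval for the log2 ratio that reaches up to -0.43. Unthinned it had 1 and 15, a log2 ratio of -4.06 (-9.46 to -1.36), and it fell by 2.23 (SE 0.18, edgeR adjusted p 0.00039) over the backgrounds. Itgax, the integrin CD11c, had 4 and 11 UMIs, with an interval that includes 0 (-1.37, -3.47 to 0.39), and fell by 1.91 (SE 0.20, edgeR adjusted p 0.0023). Ccdc80 fell by 2.17 (SE 0.15, edgeR adjusted p 0.00012), with the largest UMI number of these in the E4 pair. In the fit without the E4 libraries, the log2 changes of Lpl, Spp1, Itgax and Ccdc80 were -1.79, -2.17, -1.99 and -2.28. All 4 were lower in E4/TREM2- as well, and Ccdc80 is the only one with more than 100 UMIs in the pair.

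Homeostatic genes were slightly higher in E4/TREM2-. All 29 listed genes were measured and 23 were above 0, against 43.4% of the 9650 genes with at least 30 UMIs, with a median log2 ratio of 0.12 against -0.06 over those genes. None was 1.5-fold apart. Summed, the list reached 46019 CPM with the deletion and 40842 without it, against 22459 to 29829 in the P301S libraries. Cx3cr1, the fractalkine receptor, had 6207 and 6105 UMIs (0.12, 0.07 to 0.17), P2ry12, the ADP receptor that guides process extension, 2670 and 2553 (0.16, 0.08 to 0.24), and Tmem119 1149 and 1059 (0.21, 0.09 to 0.33). Upk1b, Jun and the fructose transporter gene Slc2a5 had ratios of 0.48, 0.47 and 0.42, and Tgfbr1, the TGF-beta receptor kinase, lay lowest at -0.20.

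The difference was spread over the population of nuclei. A nucleus held 18.4 ± 6.80 (SD over nuclei) UMIs of the list among 400 in E4/TREM2- and 16.3 ± 5.83 in E4/TREM2+, with medians of 18 and 16. At the 5th percentile both libraries held 8 UMIs, and at the 95th they held 30 and 27. The summed ratio was 0.17 (0.16 to 0.19). The median over the list stayed above 0 in every alternative reading of the pair, between 0.10 and 0.20. Beside this, the share of mt- UMIs was higher in E4/TREM2- (median 0.864% against 0.686% per nucleus), as were Gm42418 and AY036118, features that overlap ribosomal RNA, at 0.40 and 0.53. With nuclei of at most 1% mt- UMIs the homeostatic median was 0.13. The part of the other measures in the result was not tested.

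**Figure D3:**
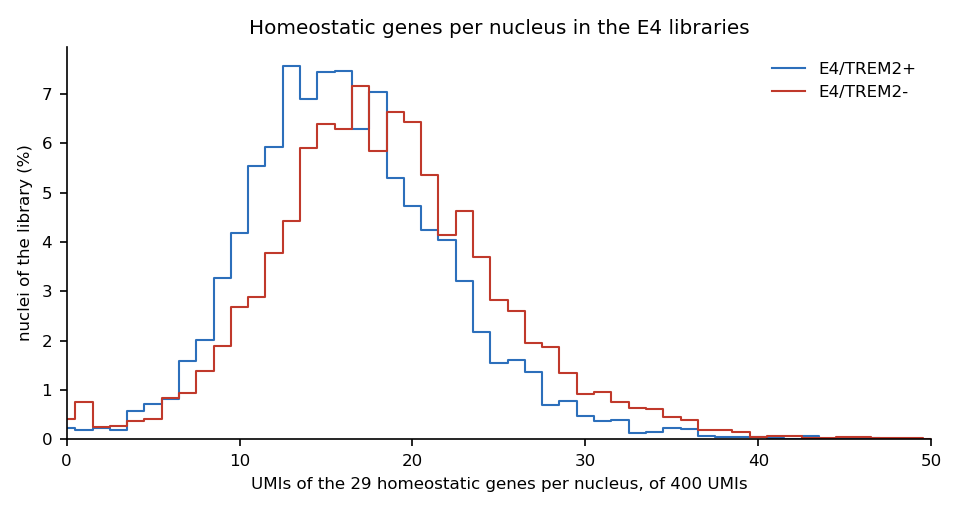
Percent of nuclei of each E4 library by the number of UMIs, out of 400, from the 29 homeostatic genes. The E4/TREM2- curve (red) is shifted to the right, with a median of 18 against 16 UMIs, and is slightly wider.

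Of the stage 1 DAM list, 9 of 10 measured genes were above 0, beside 43.4% of all genes, with Fth1 (ferritin heavy chain) at 0.37 and H2-D1 at 0.32, and Trem2 was the one below. The median was 0.14, close to that of the homeostatic list, and between 0.12 and 0.23 in the alternatives. Of the stage 2 DAM list, 20 of 28 genes were measured, 11 above and 9 below 0, and the median of 0.05 changed sign between alternatives, from -0.09 to 0.09. Within it, Ctsl (cathepsin L), with 953 and 642 UMIs, was at 0.66 (0.52 to 0.81) and the chemokine gene Ccl3, with 225 and 164, at 0.55 (0.25 to 0.85), while Lpl was at -1.38 and the Toll-like receptor gene Tlr2, with 47 and 79, at -0.66 (-1.21 to -0.12). Ctsl was lower on the TREM2- side of both P301S pairs, at -0.31 and -0.35.

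Downstream of TREM2 and TYROBP, 34 of 35 listed ITAM-signalling genes were measured, 13 above and 21 below 0, with a median of -0.11. Of all 9650 genes, 43.4% were above and 56.6% below 0. Among them 5 were at least 1.5-fold apart, 4 lower and 1 higher, while 7.01% of the 9650 genes were 1.5-fold lower and 5.15% higher. Fgr, a Src-family kinase gene, had 17 and 37 UMIs (-1.03, -1.95 to -0.16), and was called over the backgrounds, where it fell by 1.503 (SE 0.19, edgeR adjusted p 0.0070). In the nuclei with at most 1% mt- UMIs its E4 ratio was 0.16, so the E4 libraries themselves do not settle its direction. Vav1, a guanine nucleotide exchange factor, had 103 and 183 UMIs (-0.74, -1.10 to -0.38), and Mtor 31 and 55 (-0.73, -1.42 to -0.07). Syk was level, with 332 and 384 UMIs and a ratio of -0.12. Vav1 and Mtor were near 0 in P301S/E4, at 0.22 and 0.05, and below it in P301S/EKO, at -0.36 and -0.33.

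MHC class II genes, which present antigen to CD4 T cells, were higher in E4/TREM2- as a group. All 7 measured of 9 listed genes were above 0, against 43.4% of all genes with at least 30 UMIs. Of the 7, 6 were at least 1.5-fold higher, against 5.15% of all genes. H2-Aa and H2-Eb1 are neighbours on chromosome 17, which also carries Trem2, so the 7 genes are not 7 independent loci. The median was 0.64, the lowest of its readings, which reached 1.11, and it was 0.83 by the expected value of the thinning. H2-Aa had 168 and 85 UMIs (1.08, 0.69 to 1.47), Cd74, the invariant chain, 394 and 223 (0.91, 0.67 to 1.16), H2-Ab1 151 and 90 (0.84, 0.45 to 1.23), and H2-Eb1 148 and 102 (0.63). H2-DMa, of the peptide-loading complex, had the smallest ratio, 0.28 (-0.07 to 0.63).

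The E4 difference in these genes lay within the range of the series. Summed over the list, E4/TREM2- had 646 CPM and E4/TREM2+ 390, beside 653 and 833 in P301S/E4/TREM2- and P301S/E4/TREM2+ and 261 and 294 in the P301S/EKO pair. The list medians in P301S/E4 and P301S/EKO were -0.05 and -0.16. The UMIs came in part from a small set of nuclei: 1.40% (1.09 to 1.79) of E4/TREM2- nuclei held 3 or more MHC class II UMIs and carried 56.8% of the total, and 0.790% (0.56 to 1.08) of E4/TREM2+ nuclei carried 46.4%. With nuclei holding 3 or more such UMIs before thinning removed, the median was 0.64 and H2-Aa stood at 0.67. The markers of border-associated macrophages, which express MHC class II, summed to 165 and 123 CPM. Without any nucleus holding a UMI of the 5 macrophage genes used in the filter, the MHC class II median was 0.75.

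MHC class II promoters are known for paired X and Y boxes bound by the factors that recruit CIITA. The 150 bases before the annotated start of H2-Aa, the gene that was 2-fold higher, and of its neighbour H2-Eb1 are shown, from RefSeq (GRCm38.p6). Capitals mark the X box core GCAAC and the Y box CTGATTGG, both in the direction of the gene.
H2-Aa: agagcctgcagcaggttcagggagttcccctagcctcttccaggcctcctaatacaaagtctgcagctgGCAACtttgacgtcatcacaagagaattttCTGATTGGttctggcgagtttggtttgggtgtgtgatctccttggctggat
H2-Eb1: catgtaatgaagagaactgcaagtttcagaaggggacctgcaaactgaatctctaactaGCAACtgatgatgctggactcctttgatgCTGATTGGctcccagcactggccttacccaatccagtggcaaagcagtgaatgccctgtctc
The first lies at chr17:34287824-34287973 on the minus strand and the second at chr17:34305717-34305866 on the plus strand. The motifs start 30 and 29 bases apart. Searched on both strands in windows of the same length before 32851 gene starts, GCAAC was found in 19.6%, CTGATTGG in 3.16% and both in 0.654%. Of the 9 listed MHC class II genes, 6 had a promoter in the table, and 3 of these held both: H2-Aa, H2-Eb1 and H2-Oa. H2-DMa held GCAAC alone, and H2-DMb1 and H2-DMb2 neither. The pair shown was chosen after these matches were seen. A match describes these letters and is not evidence of binding in these nuclei.

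Inflammatory lists were close to 0 or slightly lower. Of 22 measured NF-kB and cytokine genes 18 were below 0, against 56.6% of all genes. The median of -0.31 was the lower end of the range between alternatives, which reached -0.10. Tnf had 14 and 34 UMIs (-1.19, -2.20 to -0.25), Rela, an NF-kB subunit, 95 and 137 (-0.44, -0.83 to -0.05), and Tgfb1, which encodes an anti-inflammatory cytokine, 557 and 482 (0.30, 0.12 to 0.48). Interferon-response genes were split, with 9 of 18 above 0 and a median of 0.02. Slfn8 was the lowest of them, and Gbp7, a guanylate-binding GTPase, was higher with 142 and 107 UMIs (0.50, 0.13 to 0.88).

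The counts above 0 that follow stand beside 43.4% of all genes with at least 30 UMIs. Of the complement genes, 8 of 9 measured were above 0 (median 0.18). C1qb was at 0.19 from 5242 and 4907 UMIs, and C5ar1, a receptor of complement C5a, at 1.41 (0.41 to 2.52) from 30 and 12. For C5ar1 the ratio was 0.67 unthinned and -0.12 in nuclei with 500 or more genes. Lysosomal genes had 18 of 30 above 0 and a median of 0.08, with Atp6v0d1, a proton pump subunit, lowest at -0.61 and Ctsl highest. In lipid and cholesterol handling, 9 of 23 were above 0 (median -0.10). Abcg1, the cholesterol exporter, was highest at 0.65 (0.37 to 0.93) with 260 and 177 UMIs, and Pnpla2, the triglyceride lipase ATGL, was at -0.88 (-1.58 to -0.21) with 29 and 57. For Abcg1 the ratio was also above 0 in both P301S pairs, at 0.95 and 0.26, and its change over the backgrounds missed the threshold (0.64, SE 0.12, edgeR adjusted p 0.099). In the TGF-beta and lineage list, Smad7, an inhibitor of TGF-beta signalling, was at 0.56 (0.43 to 0.69) with 1155 and 837 UMIs, and the PU.1 gene Spi1 at -0.43 (-0.72 to -0.13) with 164 and 235.

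**Figure D4:**
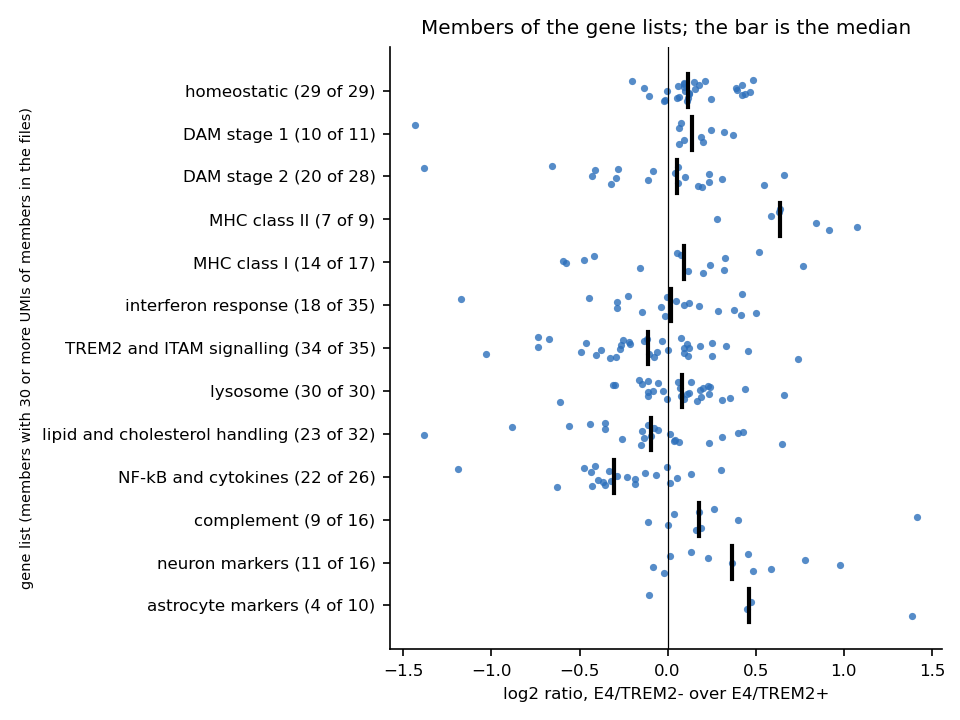
Log2 ratio of E4/TREM2- over E4/TREM2+ for each list member with at least 30 UMIs (points) and the list median (black bar), for 13 lists; the numbers beside each name are members measured of members in the files. MHC class II points all lie above 0, homeostatic points cluster just above it, and NF-kB points lie mostly below.

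Markers of other cell types moved with the comparison and are given here for reading the lists above. Ttr, a choroid plexus transcript, had 681 and 385 UMIs (0.92, 0.73 to 1.10). It was counted in 13.2% of E4/TREM2- and 6.89% of E4/TREM2+ nuclei. In the neuron-marked nuclei the shares were 15.1% (8.48 to 24.0, 14 of 93) and 8.47% (2.81 to 18.7, 5 of 59). These intervals are too wide to tell whether the share of Ttr differed between cell types within a library. Its level in the P301S libraries was 81.0 to 122 CPM, against 368 and 195 in E4/TREM2- and E4/TREM2+. Of 10 astrocyte markers 4 were measured, 3 above 0 beside 43.4% of all genes, with a summed level of 346 and 310 CPM. Oligodendrocyte markers summed to 204 and 169 CPM. The 4 measured sex-linked genes, all of the Y chromosome, were below 0, from -0.41 for Eif2s3y to -0.11 for Uty, beside 56.6% of all genes. T cell markers Cd3d, Cd3e, Cd3g and Trac and the B cell markers Cd79a and Ms4a1 were at 0 in both libraries. Other members of these lists were present: Ighm, the IgM heavy chain, had 705 and 1084 UMIs (-0.53, -0.67 to -0.39), and Il7r, the interleukin 7 receptor, 141 and 120 (0.33, -0.04 to 0.69). The B cell list summed to 497 and 668 CPM. The part of these cells or of free RNA in any list was not tested. With nuclei holding 3 or more UMIs of another cell class left out, H2-Aa was at 0.85, and Tnrc6c and Hbegf at 1.12 and -4.10.

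Among genes with at least 30 UMIs, those near Trem2 on chromosome 17 were more often 2-fold apart than all genes. Within 5 Mb of its start, 53 genes other than Trem2 had at least 30 UMIs, and 6 of them (11.3%) were at least 2-fold apart, against 2.4% of all 9650 genes. Of the 6, 2 were higher and 4 lower. All 6 had few UMIs, from 33 for Treml2 to 85 for Nfkbie over both libraries. The shares were not matched for UMI number. AI661453, whose start lies at -0.91 Mb from that of Trem2, had 32 and 8 UMIs (2.09, 0.95 to 3.42). Its ratio was 2.37 and 2.01 in P301S/E4 and P301S/EKO, and over the backgrounds it rose by 2.29 (SE 0.24, edgeR adjusted p 0.0027).

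Mdfi, which encodes an inhibitor of myogenic transcription factors and lies at -0.51 Mb, had 15 and 44 UMIs (-1.46, -2.41 to -0.59) and fell by 2.29 over the backgrounds (SE 0.27, edgeR adjusted p 0.0057). Treml2, a TREM-like receptor gene at -0.05 Mb, had 6 and 27 (-2.08, -3.64 to -0.77), and a ratio of -1.92 in P301S/EKO but 0.20 in P301S/E4. Treml1, on the other side of Trem2, had 21 and 14 UMIs, with an interval that includes 0 (0.68, -0.37 to 1.77), beside 3.43 and 2.77 in P301S/E4 and P301S/EKO.

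The remaining neighbours 2-fold apart were Nfkbie, an inhibitor of NF-kB, at -1.01 from 27 and 58 UMIs, Mea1 at -1.01 from 14 and 30, and Pla2g7, the platelet-activating factor hydrolase, at 1.05 from 31 and 16. Unthinned, Mea1 was at -0.41 and Pla2g7 at 0.53, and both genes changed sign in an alternative reading. Called over the backgrounds and also on this chromosome were Olfr111 and Guca1b. Olfr111, an olfactory receptor gene at -10.8 Mb, had 1 UMI in E4/TREM2- and 29 in E4/TREM2+. Guca1b, much closer to Trem2 at -0.96 Mb, had 0 and 11 UMIs. It was at least 3.44-fold lower against the floor of 3 counts, with a counting interval that reaches up to -1.23. Also on the chromosome of Trem2 are H2-Aa, Tnf and Ccr6, at -14.1, -13.1 and -40.1 Mb from it. H2-Eb1, the neighbour of H2-Aa, lies there too, so this limit holds for more of the MHC class II list than H2-Aa. For all these genes an effect of TREM2 and one of the chromosome that carries its deletion cannot be told apart.

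**Figure D5:**
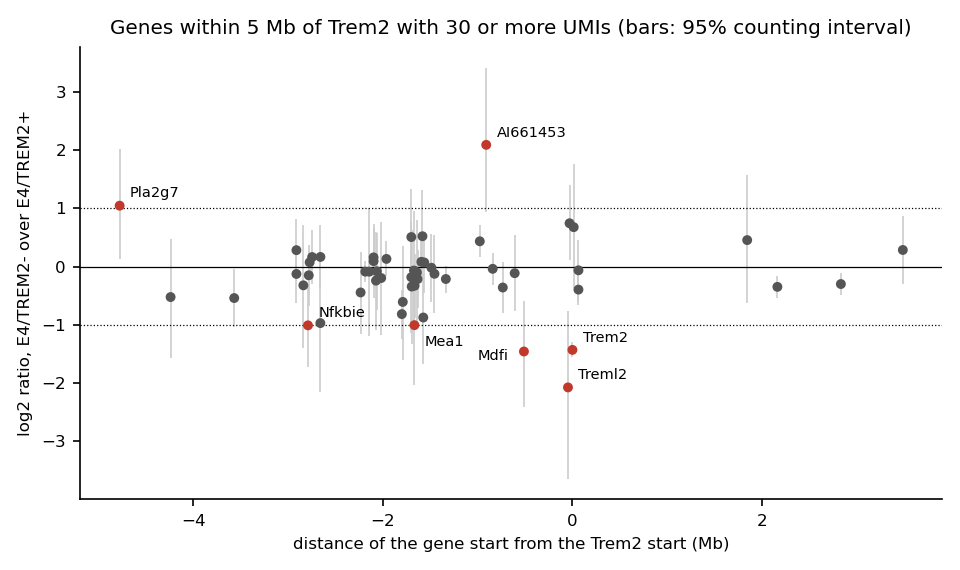
Log2 ratio of E4/TREM2- over E4/TREM2+ (points, with 95% counting intervals) for Trem2 and the 53 genes within 5 Mb of it with at least 30 UMIs, by the distance of the gene's start from that of Trem2. Red points are at least 2-fold apart, and AI661453, Mdfi and Treml2 lie within 1 Mb of Trem2.

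Whether the TREM2 ratio of the E4 pair differed from that of the P301S pairs was tested in a fit added after the data were seen. It gave the 2 P301S pairs 1 TREM2 term and the E4 pair another, with the spread taken from the P301S pairs and assumed to hold for the lone E4 libraries. Of 12403 genes, 3 (0.0242%) differed at an edgeR adjusted p of 0.05, all with a lower ratio in E4, and 405 had an unadjusted p under 0.05. They were Ccr6, with a difference of -9.39 (SE 0.50, adjusted p 8.8e-09), the predicted gene Gm12166, at -3.48 (SE 0.39, adjusted p 0.00041), and Cxcl10, an interferon-induced chemokine gene, at -4.30 (SE 0.69, adjusted p 0.038). Ccr6 and Gm12166 were also called without a composition factor and on thinned sums, where Cxcl10 had adjusted p of 0.13 and 0.57. For Hbegf the difference was -3.00 (SE 1.00, adjusted p 1), and its ratios in the P301S pairs were -2.24 and 1.47. For H2-Aa it was 1.69 (SE 0.33, adjusted p 0.16), for Cd74 1.59 (SE 0.32, adjusted p 0.16), for Slc15a2 -2.26 (SE 0.44, adjusted p 0.16) and for Ccdc80 0.32 (SE 0.35, adjusted p 1). For Trem2 itself it was -0.34 (SE 0.24, adjusted p 1).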

How the data were processed

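Nuclei were sorted and read as described above. Per the labels' protocols, reads were mapped with Cell Ranger to mm10; per the file headers, the matrices came from Cell Ranger 3.0.1. The authors deposited raw counts (UMI counts per gene and nucleus, not normalized, 31053 features). The annotation used for counting, and whether introns were counted, is not given in the sources used here. No doublet caller was run; the sort gate excluded doublets, per the labels.

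Filters, thinning to 400 UMIs (seed 1) and ratios with exact conditional 95% intervals were computed here in Python 3.11.15 (numpy 2.4.6, scipy 1.17.1, pandas 2.3.3). The fits used edgeR 4.0.16 in R 4.3.3 with TMM factors, filterByExpr and 2 residual degrees of freedom (1 in the fit without the E4 libraries and in the test of the E4 ratio against the P301S ratio), and DESeq2 1.42.0 as an alternative. Fits and ratios were tested on simulated data. Gene positions came from GENCODE vM21, matched by ID for 31011 features. UMI totals of the 6 filtered libraries were 3121838 to 7836393, and 3810413 and 3416170 for E4/TREM2- and E4/TREM2+. Each library is 1 pool of mice and each genotype has 1 library, so the spread between pools of a genotype was not measured. Fitted p-values rest on how far the TREM2 ratio varied between backgrounds. In that variation, differences between pools and between backgrounds cannot be told apart.

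Genes named were Trem2, Apoe and Tyrobp; genes with 100 or more UMIs and 2-fold apart (up to 15 at each end); up to 4 members per list by size of ratio; genes 2-fold apart within 5 Mb of Trem2; genes called over the backgrounds; and Spp1, Lpl, Itgax, Ccdc80, Cd74, H2-Aa, P2ry12, Cx3cr1 and Tmem119. Others are named as context after their values were seen, among them Syk, C1qb, Treml1, Gm42418, AY036118, Gm12166 and Cxcl10. Some genes that this rule names are not reported here. The members and lists were chosen with earlier results of these data known. Alternatives changed the thinning, the seed, the scaling, each filter and the nuclei of other types kept.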

Additional observations from a re-analysis of the deposited data

Results flagged for a closer look

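Some genes had opposite TREM2 ratios in different backgrounds. Hbegf was at -4.48 in the E4 pair and 1.47 in P301S/EKO, Slc15a2 at -1.76 and 1.04, and Gm43154 at -1.11 and 1.16. The difference from P301S/EKO alone was not tested for these 3 genes. Ccr6 was at -4.14 in the E4 pair, 6.29 in P301S/E4 and 4.70 in P301S/EKO.

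By the edgeR test of the E4 ratio against the P301S ratio, Ccr6 differed by -9.39, Cxcl10 by -4.30 and Gm12166 by -3.48. In the E4 pair Cxcl10 had 2 and 10 thinned UMIs, and 2 and 25 unthinned, the TREM2- library first, against 115 to 250 thinned UMIs in the P301S libraries. Gm12166 had 37 and 64 in the E4 pair (-0.70, -1.32 to -0.09), and ratios of 2.33 and 2.19 in P301S/E4 and P301S/EKO.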

How the results depend on the processing

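The counts of 2-fold genes, 10 higher and 14 lower, depended on how many UMIs remained. They were 37 and 37 after thinning to 800 UMIs, 88 and 103 with 500 or more detected genes, 29 and 37 with at most 1% mt- UMIs, 22 and 51 without any neuron or glia UMI, 113 and 119 with a minimum of 30 UMIs, and 4 and 3 with 300. The first 4 of these settings keep fewer nuclei. Genes that changed sign were Fgr (0.16) at 1% mt- UMIs, Mea1 (0.037) without border-associated macrophage UMIs, Pla2g7 (-0.57), Sparcl1 (-0.20), Aqp4 (-0.0080) and Mobp (-0.36) at 800 UMIs, Pla2g7 (-0.17), C5ar1 (-0.12), Mobp (-0.46) and Clec10a (-1.82) with 500 or more genes, and Snhg11 (-1.50) without any neuron or glia UMI. The cause was not tested. TMM factors and median-of-ratios factors shifted all ratios by 0.04 and 0.01.

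The fit over 3 backgrounds called 13 genes, and 210 without the expression filter, 33 on thinned sums, 40 without both E4 libraries and 15 each with DESeq2 or without a composition factor. With any 1 of the 6 libraries left out it called 37 to 83, the most without P301S/E4/TREM2- and the fewest without P301S/EKO/TREM2+. All 13 genes were called in each of these settings, except Guca1b on thinned sums. The test of the E4 ratio against the P301S ratio called 3 genes, 39 without the expression filter, 21 on thinned sums and 2 without a composition factor. Cxcl10 lost its call in both of the last settings, with differences of -2.68 and -4.33. The fits are paired by background, which is a term in each of them, and each genotype has 1 library, so replicate numbers pair nothing. With 1 pool of mice a side, differences between mice and an effect of TREM2 cannot be told apart in the E4 pair.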
